A study of Mus musculus with 4 samples.

Results

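AP-1 is a family of transcription factors assembled from pairs of subunits, and this account follows the transcripts of 10 of its genes, Fos, Fosb, Fosl1, Fosl2, Jun, Junb, Jund, Atf3, Maff and Mafk, across 4 treatments of mDCT cells. The genes were chosen by their names as AP-1 subunits, but with the log2 differences of these same libraries known, among them a lower signal of immediate early genes with 100 nM aldosterone. Their values are therefore a description and nothing is tested on them. Probe sets were taken where the platform annotation gives exactly 1 gene symbol and that symbol is a member. This gave 14 probe sets for the 10 genes, out of 45101 probe sets and 18193 genes on the array. Where a gene had several, the brightest by mean log2 signal leads and the others are shown beside it.

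The cells are mDCT, an immortalised mouse line derived from the distal convoluted tubule of the kidney. All 4 libraries came from cells carrying a transfected, FLAG-tagged form of the human mineralocorticoid receptor (MR), so the receptor was overproduced in the controls too. The treatments were 100 nM aldosterone after a pretreatment with 5 µM spironolactone, an MR antagonist, then ethanol alone, 1 nM aldosterone and 100 nM aldosterone. Pretreatment began 48 h after transfection, aldosterone or ethanol followed 2 h later, and the hormone acted for 3 h. The first of these treatments is called spironolactone below, and no library received the antagonist alone. Each treatment had 1 library, so no difference can be set against replicate error, and precision is limited by the number of arrays.

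AP-1 proteins bind DNA as dimers joined by a leucine zipper, the stretch of the basic leucine zipper (bZIP) fold that holds the subunits together. Fos proteins need a Jun partner, whereas Jun proteins also pair with each other. Many of these genes are immediate early genes, whose short-lived transcripts appear within minutes of a growth or stress signal. Corticosteroid receptors are known to interfere with AP-1 activity at the protein level, which transcript levels do not measure.

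Promoter sequences from RefSeq (build GRCm38.p6) were matched for all members but Fosl1, whose promoter was not searched. This gave 11 promoters for 9 of the 10 genes, since Maff has several starts. The 250 bases before 4 of these starts are shown, in the direction of transcription, for Junb and Atf3, whose signal was lowest with 100 nM aldosterone, and for Jun and Jund, whose brightest probe sets were nearly level. The brightest Jun probe set was also lowest with 100 nM aldosterone, within a range of 1.04-fold, so the pairs are not a clean contrast. Junb lies at chr8:84978749-84978998 (minus strand), Jun at chr4:95052223-95052472 (minus strand), Atf3 at chr1:191183334-191183583 (minus strand) and Jund at chr8:70697489-70697738 (plus strand). Capitals mark every match to the motifs searched.
Junb: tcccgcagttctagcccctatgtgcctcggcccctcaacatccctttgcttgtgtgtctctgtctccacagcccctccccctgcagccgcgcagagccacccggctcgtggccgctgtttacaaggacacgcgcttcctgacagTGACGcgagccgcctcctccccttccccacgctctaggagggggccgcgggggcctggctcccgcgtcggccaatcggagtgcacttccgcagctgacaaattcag
Jun: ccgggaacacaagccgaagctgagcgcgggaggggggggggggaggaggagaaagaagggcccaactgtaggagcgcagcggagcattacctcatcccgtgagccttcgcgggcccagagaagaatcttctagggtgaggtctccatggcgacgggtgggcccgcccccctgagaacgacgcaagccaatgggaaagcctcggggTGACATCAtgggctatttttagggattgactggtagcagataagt
Atf3: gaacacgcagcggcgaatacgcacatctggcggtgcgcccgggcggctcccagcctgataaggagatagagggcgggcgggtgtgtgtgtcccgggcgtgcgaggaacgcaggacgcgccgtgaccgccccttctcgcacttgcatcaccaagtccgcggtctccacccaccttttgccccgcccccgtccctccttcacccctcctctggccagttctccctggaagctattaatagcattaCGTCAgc
Jund: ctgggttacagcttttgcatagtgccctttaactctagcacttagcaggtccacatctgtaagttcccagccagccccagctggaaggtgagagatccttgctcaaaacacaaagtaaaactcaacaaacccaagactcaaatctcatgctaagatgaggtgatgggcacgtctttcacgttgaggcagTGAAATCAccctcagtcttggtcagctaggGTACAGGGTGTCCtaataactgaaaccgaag
The motifs were searched on both strands: the AP-1 site TGANTCA, the related ATF/CRE-type site TGANNTCA, the core TGACG of the cAMP response element, the palindromic element of steroid receptors, and the CArG box bound by serum response factor. TGACGTCA, which is in a Maff promoter, matches TGANNTCA and, on both strands, TGACG. The core TGACG was in 7 of the 11 AP-1 promoters, against 17.8% of all 32851 promoters in the table. It was the match in Junb and, on the other strand (cgtca), in Atf3. The site TGANNTCA was in 4 of the 11, against 11.9% of all promoters, and it was the match in Jun. Jund held another match to that motif, and it was the only AP-1 promoter with a match to the steroid receptor element (its capitals nearest the start), which 0.387% of all promoters held. Maff, with several starts, counts more than once for TGACG and for TGANNTCA. No AP-1 promoter matched TGANTCA or the CArG box in these 250 bases, where 6.75% and 1.47% of all promoters did. Fosl2, also lowest with 100 nM aldosterone, matched none of the motifs there. Matches are letters in a window and not measured binding.

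The deposited values are MAS5 signals on a linear scale, already scaled to the same trimmed mean of 500.0 in each library. Genes entered the comparisons if their mean log2 signal reached the median over the non-control probe sets, which is a signal of 55.9. Of 11057 entered genes 9 were AP-1 members, all but Fosb. The lowest correlation of log2 signal between any pair of libraries was 0.991 over these genes. To show how much genes of like brightness differed, the entered genes were split into 4 parts of equal size by mean signal, 2764 or 2765 genes each, and the range of the middle 90% of their differences is given. That range is a spread between genes within a pair of libraries, not a replicate error. Each of the 5 corticosteroid-responsive genes looked at, Sgk1, Tsc22d3, Per1, Fkbp5 and Klf9, was higher with 100 nM aldosterone than in ethanol, by 0.40 to 1.19 on the log2 scale; they were chosen with these values known. With 1 nM aldosterone against ethanol Fkbp5 differed by 0.52 (0.07 in its other probe set) and Sgk1 by 0.22. The brightest probe sets of Klf9 (0.05), Tsc22d3 (-0.02) and Per1 (-0.04) were nearly level there. With spironolactone all 5 lay below 100 nM aldosterone alone, with differences of -0.59 to -0.17, and above ethanol, with differences of 0.11 to 0.83. On these genes the 1 nM library was therefore mostly close to ethanol, and the library with spironolactone lay between ethanol and 100 nM aldosterone.

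The cell type was checked with marker lists. Of the distal convoluted tubule markers 6 of 11 entered, with Wnk1 the brightest, but the defining cotransporter gene Slc12a3 had signals of 4.35 with spironolactone, 3.93 in ethanol, 17.2 with 1 nM and 12.1 with 100 nM aldosterone, below the filter. The sum of those markers was 9154 with spironolactone and 7765 to 8338 in the other libraries. Most of it was Wnk1, with signals of 8372 with spironolactone, 6887 in ethanol, 7413 with 1 nM and 6878 with 100 nM aldosterone. Among the other entered markers Pvalb, Trpm6 and Wnk4 were lowest with spironolactone, while Stk39 and Kcnj10 were not. Of the proximal tubule markers 5 of 5 entered, with sums of 2837 to 3164, and of the kidney epithelium markers 3 of 7, with sums of 3389 to 3746. Fibroblast markers entered in 0 of 8 cases, with sums of 169 to 280, endothelial markers in 1 of 5, with sums of 121 to 151, and leukocyte markers in 2 of 5, with sums of 945 to 1198. The leukocyte sum was nearly all Csf1r, while Ptprc, the pan-leukocyte marker, stayed between 0.657 and 14.3. The part of any marker in the AP-1 values was not tested.

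**Figure D1:**
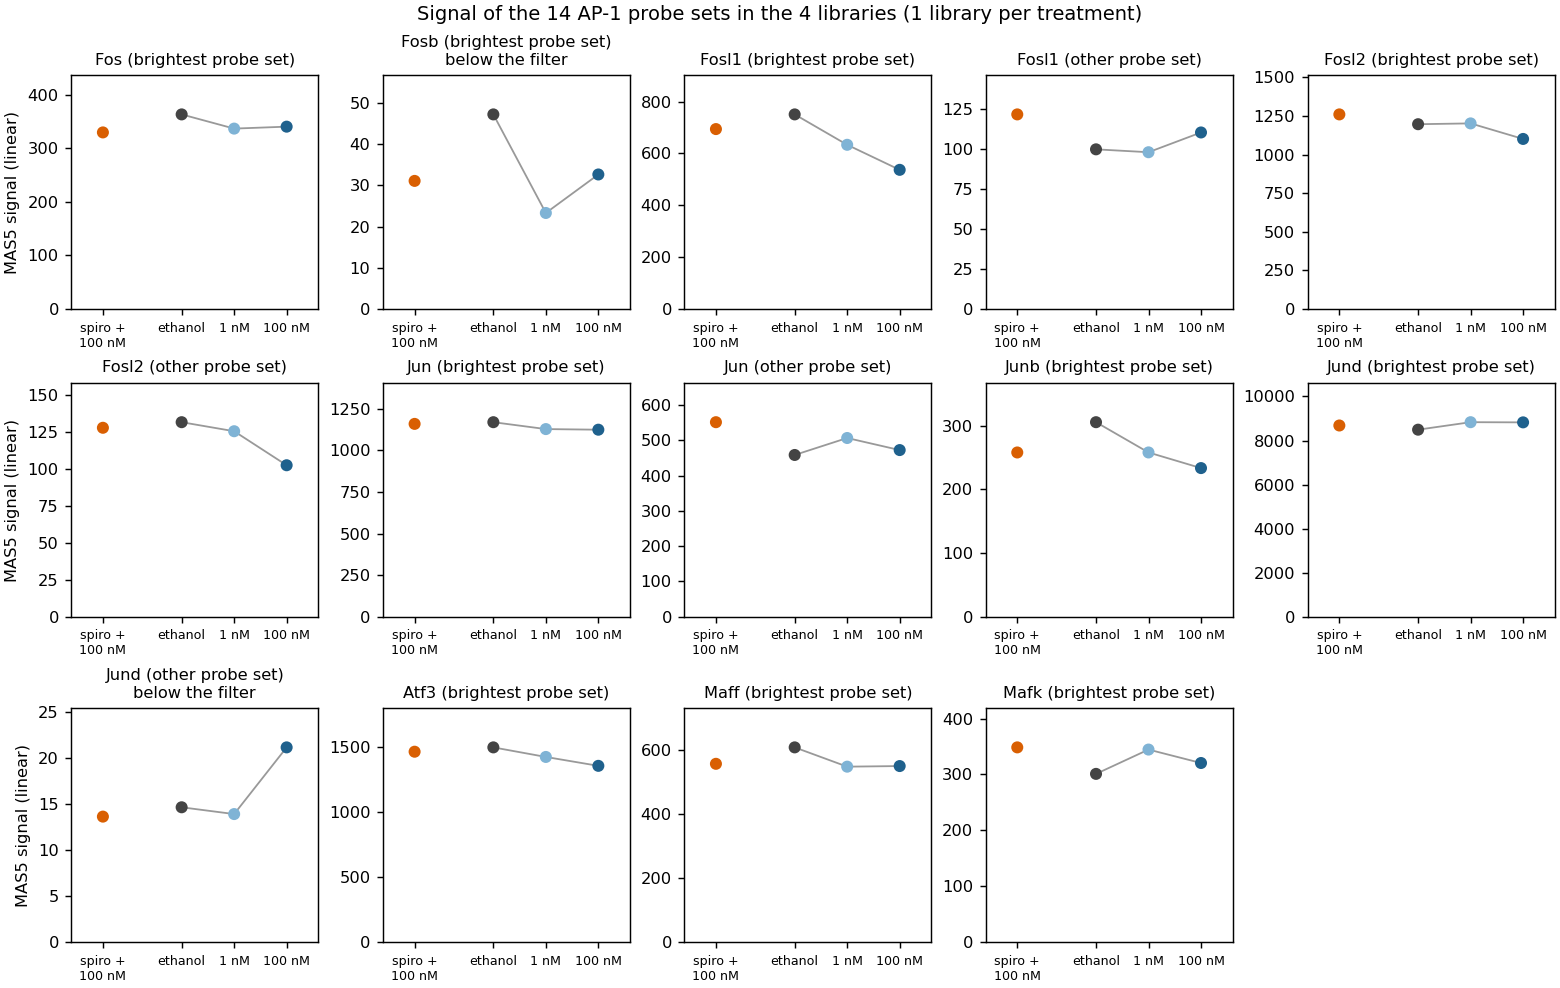
Linear MAS5 signal (vertical axes, starting at 0) of each of the 14 AP-1 probe sets in the library with spironolactone before 100 nM aldosterone ("spiro + 100 nM"), and along ethanol, 1 nM and 100 nM aldosterone joined by a line; each point is 1 library. The brightest Fosl1, Junb and Atf3 probe sets and the other Fosl2 probe set step down along the doses. The brightest Jun and Jund probe sets are nearly level, and the other probe sets of these genes vary more.

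Fosl1, which encodes the Fos-related subunit FRA1, had the clearest pattern. Its brightest probe set had a signal of 694 with spironolactone, and along the doses 751 in ethanol, 634 with 1 nM and 537 with 100 nM aldosterone. The signal was thus lowest at the higher dose, and with the antagonist it lay between ethanol and 1 nM. The difference of 100 nM aldosterone from ethanol was -0.48 on the log2 scale, a 1.40-fold lower signal, outside the middle 90% of genes of like signal (-0.36 to 0.32); 1.99% of those genes were as low or lower. The difference of spironolactone from 100 nM aldosterone alone was 0.37, or 1.29-fold, also outside the middle 90% (-0.36 to 0.33), with 3.76% of genes as high or higher. Both comparisons use the same 100 nM library, so opposite differences arise in part from that sharing. Of genes of like signal 11.6% had a range over the 4 libraries at least as wide as that of this probe set. In these bulk libraries fewer cells with a transcript and less transcript per cell cannot be told apart.

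The other Fosl1 probe set did not follow. It had signals of 122 with spironolactone, 99.7 in ethanol, 97.9 with 1 nM and 110 with 100 nM aldosterone, and its difference of 100 nM from ethanol was 0.14. The gap between the Fosl1 probe sets in that comparison was 0.63. The dimmer probe set lies in the dimmest of the 4 signal classes, where the middle 90% of genes spans -0.62 to 0.77.

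Junb, a Jun protein often described as a weaker activator than Jun, was also lowest at the higher dose. Its only probe set had a signal of 258 with spironolactone, and 306 in ethanol, 258 with 1 nM and 234 with 100 nM aldosterone. Ethanol was the highest library. Against ethanol the log2 difference was -0.24 with 1 nM, -0.39 with 100 nM and -0.24 with spironolactone. The value for 100 nM, a 1.31-fold lower signal, lay just outside the middle 90% of its signal class, and 4.09% of those genes were as low or lower. The values for 1 nM and for spironolactone lay inside their ranges (-0.37 to 0.33 and -0.36 to 0.30), with 14.3% and 12.3% of genes as low or lower. All 3 differences share the ethanol library, so no agreement is read from them. Spironolactone differed from 100 nM aldosterone alone by 0.14, inside the middle 90% for that comparison (-0.36 to 0.33). Of genes of like signal 23.0% had a range over the 4 libraries at least as wide as that of Junb.

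Fosl2 encodes FRA2, another Fos-related subunit, and has a pair of probe sets that went the same way between 100 nM aldosterone and the other libraries. The brighter had signals of 1260 with spironolactone, 1197 in ethanol, 1202 with 1 nM and 1101 with 100 nM aldosterone. The dimmer had signals of 128 with spironolactone, 132 in ethanol, 126 with 1 nM and 103 with 100 nM aldosterone. In both, the 100 nM library was the lowest and the other libraries lay close together. For 100 nM aldosterone against ethanol the log2 differences were -0.12 and -0.36, and for spironolactone against 100 nM aldosterone alone they were 0.19 and 0.32. All 4 values lay inside the middle 90% for their signal class. The brighter probe set's 0.19 was near the upper end, with 90.7% of genes of like signal at or below it.

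Fos itself, the prototype of the family, varied little. Its signal was 330 with spironolactone, 363 in ethanol, 337 with 1 nM and 341 with 100 nM aldosterone. Ethanol was the highest library and the other 3 lay within a few percent of each other. The whole range of Fos over the libraries was 0.14 on the log2 scale, and 85.4% of genes of like signal had a range at least as wide.

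Fosb, the remaining Fos gene, had signals of 31.1 with spironolactone, 47.3 in ethanol, 23.3 with 1 nM and 32.7 with 100 nM aldosterone. It was below the filter and ethanol was its highest library. Its range of 2.03-fold was narrower than that of most dim genes, since 77.3% of the 7136 genes below the filter had a range at least as wide. No direction is read from it.

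Jun, the partner that Fos proteins need, was level in its brightest probe set. The signal was 1159 with spironolactone, 1169 in ethanol, 1128 with 1 nM and 1124 with 100 nM aldosterone. Its range was 1.04-fold, and 96.5% of genes of like signal varied at least as much. The other Jun probe set had signals of 551 with spironolactone, 458 in ethanol, 506 with 1 nM and 472 with 100 nM aldosterone. There ethanol was the lowest library and spironolactone the highest, with a log2 difference of 0.27 between them, against -0.01 in the brightest probe set.

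Jund, the Jun protein known for constant expression, was the brightest AP-1 probe set and as level as Jun. Its signal was 8683 with spironolactone, 8493 in ethanol, 8833 with 1 nM and 8825 with 100 nM aldosterone. The range was again 1.04-fold. A dim Jund probe set below the filter had signals of 13.6 with spironolactone, 14.7 in ethanol, 13.9 with 1 nM and 21.2 with 100 nM aldosterone, which the brightest probe set did not mirror.

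Atf3 encodes a stress-induced bZIP factor that pairs with Jun proteins. Its signal was 1461 with spironolactone, 1494 in ethanol, 1420 with 1 nM and 1352 with 100 nM aldosterone. The libraries stood in the same order as for the brightest Fosl1 and Jun probe sets. The log2 difference of 100 nM aldosterone from ethanol was -0.14 and that of spironolactone from 100 nM aldosterone alone 0.11, both inside the middle 90% of their class.

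Maff and Mafk encode small Maf proteins, which lack an activation domain and pair with other bZIP factors. Maff had signals of 557 with spironolactone, 609 in ethanol, 548 with 1 nM and 550 with 100 nM aldosterone, so ethanol stood above the others. Mafk had signals of 348 with spironolactone, 301 in ethanol, 344 with 1 nM and 320 with 100 nM aldosterone, so ethanol stood below them. Between 100 nM aldosterone and ethanol the log2 difference was -0.15 for Maff and 0.09 for Mafk, and both lay inside the middle 90% of their class.

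**Figure D2:**
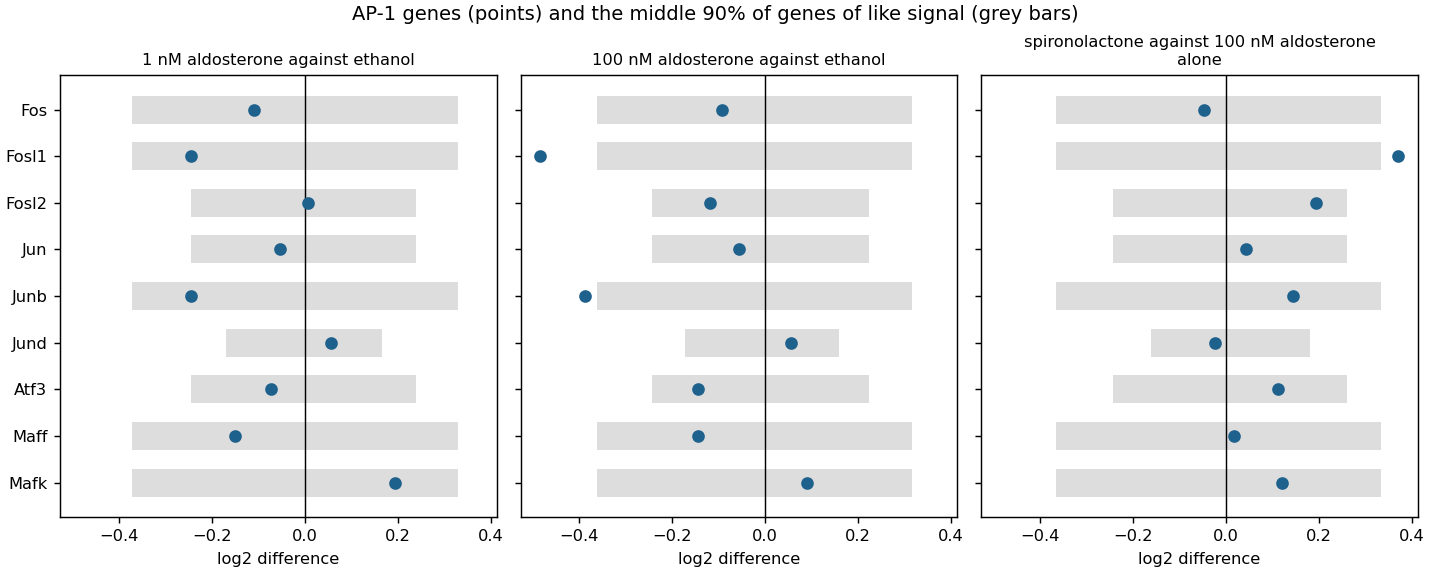
Log2 difference (horizontal axis) of each of the 9 entered AP-1 genes, brightest probe set, for 1 nM aldosterone against ethanol, 100 nM aldosterone against ethanol, and spironolactone against 100 nM aldosterone alone; grey bars span the middle 90% of entered genes of like signal. Fosl1 at -0.48 and Junb at -0.39 lie outside the bar with 100 nM aldosterone, Fosl1 at 0.37 lies outside it with spironolactone, and every other point is inside.

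Over the family, 100 nM aldosterone against ethanol showed Fosl1 and Junb at least 1.3-fold lower, 2 of 9 members, where 4.87% of all entered genes were; 0 members were at least 1.3-fold higher, where 5.62% of genes were. Junb, at 1.31-fold, passed that fold narrowly. By sign alone 7 of 9 members were lower, against 51.3% of all genes, and Jund and Mafk were the exceptions. The median log2 difference was -0.12 for the members and 0.00 for all entered genes. With 9 genes and 1 library a side these are counts, and chance is not measured by them.

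**Figure D3:**
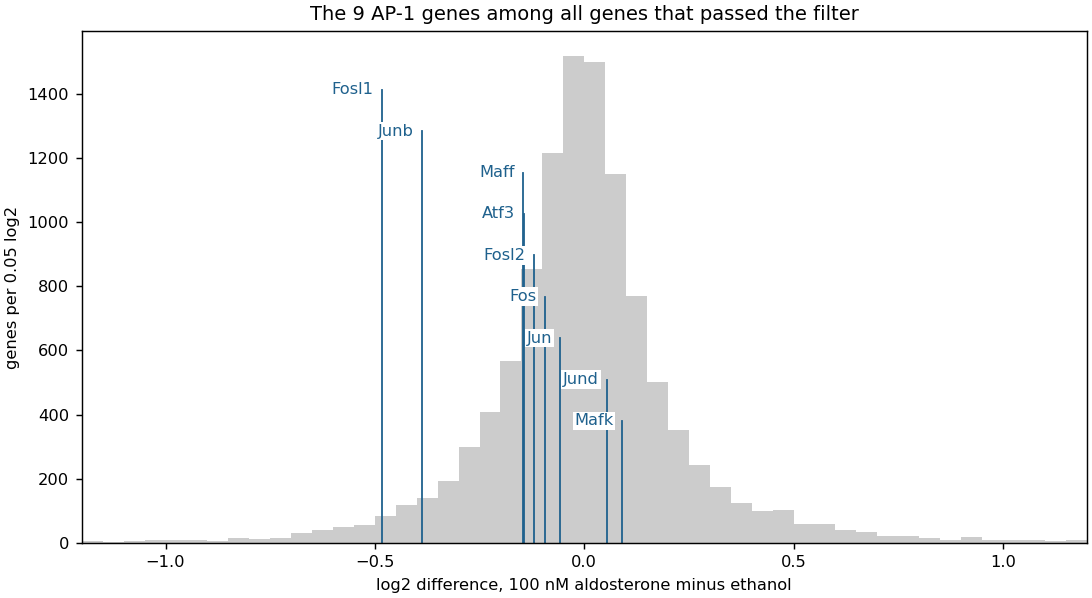
Distribution of the log2 difference of 100 nM aldosterone minus ethanol over the 11057 entered genes (grey bars, genes per 0.05 log2; a few genes lie beyond the axis), with the 9 AP-1 genes as blue lines whose heights carry no value. Fosl1 and Junb stand in the lower tail, and the other 7 lie between -0.15 and 0.09.

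For 1 nM aldosterone against ethanol, 0 of 9 members were at least 1.3-fold lower and 0 at least 1.3-fold higher, where 5.19% and 5.94% of entered genes were. The median of the members was -0.07, with Fosl1 the lowest at -0.25 and Mafk the highest at 0.19. By sign 6 of 9 were lower, against 51.7% of genes, and 8 of 9 after centring each array on its median, against 68.0% of genes under the same centring. Centring moves every gene alike, here the median of all entered genes to -0.07, against -0.01 without it, and the members whose sign it turned, Fosl2 and Jund, lay near 0.

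Between the doses, 100 nM against 1 nM aldosterone, 0 members passed 1.3-fold lower or higher, where 5.02% and 4.97% of genes did. By sign 7 of 9 were lower at the higher dose, against 48.7% of genes, but 5 of 9 after median centring, against 34.7% of genes under the same centring, which turned the sign of Jun and Jund, both near 0. Fosl1 was lowest at -0.24, and the median of the members was -0.07.

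With spironolactone against 100 nM aldosterone alone, 0 of 9 members were at least 1.3-fold higher and 0 at least 1.3-fold lower, where 4.76% and 6.24% of genes were. Fosl1, at 1.29-fold higher, lay just short of that fold. By sign 7 of 9 members were higher, against 49.3% of genes, with Fos (-0.05) and Jund (-0.02) on the other side, and the median was 0.11. This comparison shares its 100 nM library with that against ethanol, so the values are given beside each other and no agreement is read from them.

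With spironolactone against ethanol, 0 of 9 members passed 1.3-fold lower or higher, where 5.63% and 4.76% of genes did. The median was -0.03, Junb was the lowest at -0.24 and Mafk the highest at 0.21. By sign 6 of 9 were lower, against 51.8% of genes.

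The order of the 4 libraries was counted after the values had been seen. The 100 nM library was the lowest for 5 of 9 members, Fosl1, Fosl2, Jun, Junb and Atf3, against 25.2% of entered genes. Ethanol was the highest for 6 of 9, Fos, Fosl1, Jun, Junb, Atf3 and Maff, against 27.1% of genes. The full order of ethanol above spironolactone, above 1 nM, above 100 nM aldosterone held for Fosl1, Jun and Atf3, 3 of 9, against 4.71% of genes. In Jun that order rests on differences of at most 0.06 on the log2 scale, and its other probe set had ethanol lowest. The dose order of ethanol above 1 nM above 100 nM aldosterone held for Fosl1, Jun, Junb and Atf3, 4 of 9, against 16.5% of genes. Among the 12 AP-1 probe sets at or above the filter, 6 were lowest with 100 nM aldosterone.

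Genes with the profile most like that of Fosl1 were sought among the 6936 genes above the 75th percentile of signal, by the Euclidean distance between log2 profiles centred over the 4 libraries. The nearest were Aasdh, Yars, which encodes a tyrosyl-tRNA synthetase, Arfip2, Fam174c and Taf1d, a subunit of an RNA polymerase I initiation factor. Their distances lay between 0.03 and 0.07 log2. Aasdh, the nearest, had signals of 1109 with spironolactone, 1228 in ethanol, 1008 with 1 nM and 856 with 100 nM aldosterone. With 4 libraries many genes share any given profile.

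**Figure D4:**
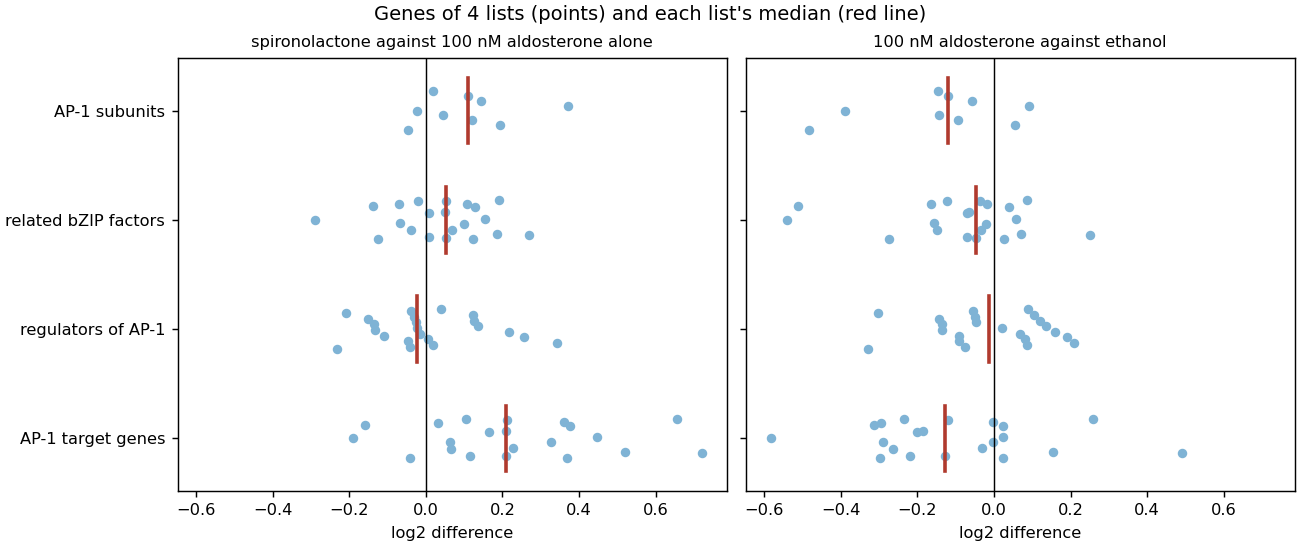
Log2 differences (horizontal axis) of the entered genes of 4 lists, for spironolactone against 100 nM aldosterone alone and for 100 nM aldosterone against ethanol, which share the 100 nM library; points are genes, scattered vertically for legibility, and red lines are list medians. The AP-1 target genes lie mostly to the right of 0 with spironolactone (median 0.21).

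Other bZIP factors, which pair with AP-1 proteins or resemble them, were followed in a list of 29, of which 21 entered. With 100 nM aldosterone against ethanol 2 were at least 1.3-fold lower and 0 higher, where 4.87% and 5.62% of all entered genes were. The median was -0.05, and 15 of 21 were lower by any amount, against 51.3% of genes. The 2 were Atf7, a partner of Jun proteins, with a signal of 79.8 with 100 nM aldosterone against 116 in ethanol, and Batf3, which competes with Fos for Jun partners, with 145 against 206. Both are dim, and their log2 differences of -0.54 and -0.51 are inside the middle 90% of the dimmest class (-0.62 to 0.77). Atf4 (0.06), Cebpb (0.04) and Nfe2l2 (-0.04), factors of the stress and inflammatory responses, were nearly level. With 100 nM against 1 nM aldosterone 3 were at least 1.3-fold lower and 0 higher, where 5.02% and 4.97% of genes were: Batf3 (145 against 256), Atf7 (79.8 against 109) and Bach2 (217 against 288), a repressor that pairs with small Maf proteins. Their log2 differences were -0.82, -0.45 and -0.41, with Batf3 and Bach2 outside the middle 90% of their classes and Atf7 inside. The other Bach2 probe set above the filter differed by -0.26. When a gene's probe sets were averaged by their median, 2 were lower and 2 higher in that comparison. Under the same averaging 7.37% and 6.81% of genes were. With spironolactone against 100 nM aldosterone alone 0 were at least 1.3-fold lower or higher, where 6.24% and 4.76% of genes were. Under that averaging 1 was lower and 1 higher, where 8.79% and 6.78% of genes were.

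Regulators of AP-1, the MAP kinases and the serum response and ternary complex factors that drive Fos and Jun transcription among them, divided evenly by sign with 100 nM aldosterone against ethanol. Of 29 listed 22 entered. In that comparison 0 were at least 1.3-fold higher or lower, where 5.62% and 4.87% of all entered genes were. By any amount 11 were lower and 11 higher, where 51.3% of genes were lower, and the median was -0.01. Averaging probe sets by their median gave 14 lower and 8 higher by any amount, where 50.9% of genes were lower under the same averaging. It also gave 2 at least 1.3-fold higher and 0 lower, where 7.75% and 7.54% of genes were. The Jun kinase genes Mapk8 and Mapk9 differed by 0.12 and 0.08, and Zfp36, which speeds the decay of short-lived transcripts, by 0.14. By brightest probe set the lowest regulators were Elk3 (-0.33) and Elk1 (-0.30), and the highest were Mapk11 (0.21) and Srf (0.19). With 100 nM against 1 nM aldosterone 2 regulators were at least 1.3-fold higher and 1 lower, where 4.97% and 5.02% of genes were. The p38 kinase gene Mapk11, a dim one, had a signal of 188 with 100 nM aldosterone against 121 with 1 nM, a log2 difference of 0.64, against -0.27 in its other probe set. Map2k2, which encodes an ERK-activating kinase, had a signal of 2546 against 1947, a difference of 0.39, and 0.12 in its other probe set. Elk3, a ternary complex factor, had a signal of 1104 with 100 nM aldosterone against 1443 with 1 nM, a log2 difference of -0.39, though the values of its further probe sets were -0.24 and 0.14. With spironolactone against ethanol 1 regulator was at least 1.3-fold lower and 1 higher, where 5.63% and 4.76% of genes were. Elk1, another ternary complex factor gene and a dim one, had a signal of 103 with spironolactone against 147 in ethanol, a difference of -0.51. Srf, the serum response factor gene, had a signal of 713 with spironolactone against 523 in ethanol, a difference of 0.45, and 0.37 in its other probe set.

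Known AP-1 target genes were followed in a list of 34, of which 21 entered. With 100 nM aldosterone against ethanol 15 of 21 were lower by any amount (13 after quantile normalization), against 51.3% of genes, with a median of -0.13. In that comparison 1 was at least 1.3-fold lower and 1 higher, where 4.87% and 5.62% of genes were. Averaging probe sets by their median gave 3 lower and 0 higher, where 7.54% and 7.75% of genes were under the same averaging. By brightest probe set the lower was Flrt3 (59.3 against 88.8), a dim cell adhesion gene, with a log2 difference of -0.58 against -0.14 in its other probe set. The higher was Sphk1, a sphingosine kinase, with a signal of 447 against 318. With spironolactone against 100 nM aldosterone alone 18 of 21 were higher by any amount, where 49.3% of all genes were, with a median of 0.21 against 0.00 for all genes, and 4 were at least 1.3-fold higher and 0 lower, where 4.76% and 6.24% of genes were. With probe sets averaged by their median 17 of 21 were higher by any amount, with a median of 0.19, where 52.3% of all genes were lower. Under that averaging 3 were at least 1.3-fold higher and 1 lower, where 6.78% and 8.79% of genes were.

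Those 4 were Itga5, an integrin subunit, Flrt3, Ptgs2, the inducible cyclooxygenase, and the chemokine gene Ccl2. Ptgs2 had a signal of 488 with spironolactone against 340 with 100 nM aldosterone alone, a log2 difference of 0.52, and 0.49 in its other probe set. Ccl2 had a signal of 2428 with spironolactone against 1782, a difference of 0.45. Itga5 (92.5 against 56.2) and Flrt3 (93.4 against 59.3) are dim, and their 100 nM signals lie near the filter of 55.9. The log2 difference of Flrt3 was 0.66, against 0.28 in its other probe set. With spironolactone against ethanol the target list had a median of 0.09, 3 genes (Cxcl1, Itga5 and Ereg) at least 1.3-fold higher and 0 lower, where 4.76% and 5.63% of all genes were. That count was 2 higher after quantile normalization, where 5.03% of genes were. With probe sets averaged by their median it was 1 higher and 1 lower, where 6.42% and 8.42% of genes were. Cxcl1 differed from ethanol by 0.47 in its brightest probe set and by 0.29 and 0.27 in its others. Many of these targets also answer to other transcription factors, and AP-1 activity was not measured.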

How the data were processed

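The 4 treatments of mDCT cells had 1 array each, made from biotin-labelled cRNA of 250 ng total RNA per the labels' protocols. The authors deposited linear intensities per probe set, and MAS5 is the tool that the submitters' processing notes name. For its version, scaling target, detection calls and genome build, the sources used here give nothing. A mean trimmed by 2% at each end was the same in every array. No further scaling was applied.

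Columns were assigned by the samples' own names, with 0 columns of other samples. The 64 control probe sets were left out. The platform annotation gave 1 symbol to 34945 probe sets and several to 932, of which 0 named an AP-1 member. Each gene was represented by its brightest probe set over the 4 arrays. Differences are of log2 signal with no pseudocount, the treatment named before "against" minus the one after it, and a fold of 1.3 was the counting limit. With 1 library per treatment there was no test. The script was tested on simulated data. Python 3.11.15, numpy 2.4.6, pandas 2.3.3 and matplotlib 3.10.9 were used.

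All probe sets of the 10 members are named. In each other list, named genes are at most the 4 largest past 1.3-fold in the comparison described, and the 5 most like profiles were taken for the member with the widest range above the 75th percentile of signal. Level genes given as examples were chosen after their values were seen. The members and lists were chosen with earlier results of these data known. Alternatives covered scaling, low signals, the choice of probe set and the filter.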

Additional observations from a re-analysis of the deposited data

How the results depend on the processing

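No paired analysis was possible because each treatment had 1 library. The medians of the AP-1 members kept their sign in all 5 comparisons under all 7 alternatives: for 100 nM aldosterone against ethanol they ran from -0.14 to -0.12, and for spironolactone against 100 nM aldosterone alone from 0.08 to 0.12. The other medians moved by more than 1.5 times: from -0.14 to -0.06 for 1 nM aldosterone against ethanol, from -0.07 to -0.02 for 100 nM against 1 nM aldosterone, and from -0.07 to -0.02 for spironolactone against ethanol. The count of members at least 1.3-fold lower with 100 nM aldosterone than in ethanol, 2, was 1 after quantile normalization, 1 with 16 added to every signal, 1 when a gene's probe sets were averaged by their median and 1 above the 75th percentile of signal. Of all genes 4.49%, 4.04%, 7.54% and 1.24% were that much lower under these settings in turn. With the median over probe sets Fosl1 differed by -0.17, because its probe sets disagree. Members at least 1.3-fold higher with spironolactone than with 100 nM aldosterone alone numbered 1 after quantile normalization, against 0, where 4.68% of all genes were after that normalization. Without the filter, Fosb brought 1 member 1.3-fold lower with 1 nM aldosterone and 1 with spironolactone, each against ethanol, and 1 higher with 100 nM against 1 nM aldosterone. Fosb, at -0.53, also raised to 3 the count at least 1.3-fold lower with 100 nM aldosterone than in ethanol. Without the filter 15.9% of all genes were at least 1.3-fold lower with 1 nM aldosterone than in ethanol, and 16.4% with 100 nM. With spironolactone 17.9% were that much lower than in ethanol, and 16.6% were that much higher with 100 nM than with 1 nM aldosterone. Of 305 values of single members under the alternatives, 296 moved by less than the median absolute difference of all genes in that comparison, and none past 1.3-fold changed sign. Many could not move: the changes of filter (50 and 30 values) and raising low signals to the filter (45 values) left the members' differences as they were. All 9 that moved were among the 45 values with probe sets averaged by their median, which alters only genes with several probe sets. The library orders, recomputed under settings chosen after seeing the data, stayed within 1.5 times their counts. No detection calls were used, so signals near the filter carry the least weight.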
